A study of Mus musculus with 15 samples.

Results

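YAP and its paralogue TAZ are transcriptional coactivators, and MRTF-A and MRTF-B are the coactivators of serum response factor (SRF), and both systems tie gene expression to the actin cytoskeleton. YAP (gene Yap1) and TAZ (gene Wwtr1) have no DNA-binding domain and act through the TEAD transcription factors, while LATS kinases, angiomotins and the phosphatase PTPN14 hold them out of the nucleus or mark them for breakdown. MRTF proteins bind monomeric actin and enter the nucleus when actin assembles into filaments, where they join SRF on the promoters of cytoskeletal genes. Pancreatic stellate cells (PSC), the fibroblast-like cells of the pancreas, take on contractile features when activated, and both systems are known to be active in such cells. The genes described here are 33 components and targets of these systems, chosen by name as probes whose gene name on the array is on the list. They were read by 61 of 56605 probes and make up 33 of 37008 gene names. Cyr61 and Ctgf on the array are Ccn1 and Ccn2 today, and Mkl1 and Mkl2 are Mrtfa and Mrtfb.

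Expression was measured on 15 one-colour Agilent mouse arrays in 5 groups of 3. The groups were PSC from heterozygous mice (PSC HT), PSC from wild-type mice (PSC WT), and mouse pancreatic cancer cells kept for 24 h in medium conditioned by HT PSC, in medium conditioned by WT PSC, or in control medium. All PSC had been cultured for 2 weeks until activated. The sample labels of the HT PSC medium group leave out the word medium, which the design text of the series supplies. The labels do not name the heterozygous locus, the cancer cell line or the sex and age of the mice, nor whether the 3 replicates came from different animals or cultures. The p-values therefore describe the spread among the arrays of a group, part or all of which may be technical. Levels are log2 signals relative to the 75th percentile of the array, given in the order of replicates 1, 2 and 3. Differences are on the same log2 scale, ± SE with 3 arrays per group, and a gene passed the test, or was called, at an adjusted p under 0.05 from limma over all genes tested. A level compares arrays for 1 probe and does not rank genes.

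On the arrays 54.3% to 63.8% of spots were well above background. Of 12 stellate and fibroblast markers, 12 were well above background on every PSC array and 3 to 6 on the cancer cell arrays, while of 12 epithelial markers 11 or 12 were above it on the cancer cell arrays and 7 or 8 on the PSC arrays. Replicate 3 of PSC HT stood apart in that the epithelial cadherin Cdh1 read -2.45 on it, against -8.22 to -7.61 on the other 5 PSC arrays, so the genotype results below are also given without it. The arrays lay on 2 slides, each with arrays of every group. All 33 genes passed the filter on dim probes in PSC, and 32 passed it in the cancer cells. Vgll3 was the exception.

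TEAD proteins bind GGAATG, which on the opposite strand is written CATTCC, and SRF binds the CArG box, which is its own complement. RefSeq promoters of build GRCm38.p6 were matched for 29 of the 33 genes, and the 250 bases before each start were searched. Ccn2, Nuak2, Tead1 and Tead4 had no matched promoter. GGAATG was present before 17 of the 29 genes (58.6%), against 14.4% of all 27025 genes in the promoter table. A CArG box was present before 4 of the 29 (13.8%), against 1.62% of all genes, and no match of one motif overlapped the other. Genes with several start sites were counted once if any of them held the motif. A match describes these letters only, and binding was not measured. The genes were chosen by name as components and targets of these systems. A share above that of all genes could thus be foreseen and is not a test of the list.

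The 6 sequences below are shown because the results turn on these genes: Ccn1, Ankrd1 and Amotl2 passed the test in conditioned medium and hold the TEAD motif, Cnn2 passed it and holds a CArG box, Ptpn14 had the largest genotype difference in size, and Srf belongs to its own motif's system. F3, Cnn3, Actn1 and Cnn2 also passed in a medium and hold no GGAATG in these bases. Genes called in neither medium hold the motifs too, among them Axl, Crim1, Yap1 and Wwtr1 for GGAATG and Vcl and Srf for the CArG box. Capitals mark the motifs, and each sequence reads 5′ to 3′ along the gene and ends at the base before the start.
Ccn1: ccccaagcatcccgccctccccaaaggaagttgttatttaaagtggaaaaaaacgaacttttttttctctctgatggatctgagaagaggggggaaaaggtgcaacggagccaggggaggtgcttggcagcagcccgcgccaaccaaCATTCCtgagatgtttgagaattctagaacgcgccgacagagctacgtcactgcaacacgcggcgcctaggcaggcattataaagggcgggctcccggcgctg
Ankrd1: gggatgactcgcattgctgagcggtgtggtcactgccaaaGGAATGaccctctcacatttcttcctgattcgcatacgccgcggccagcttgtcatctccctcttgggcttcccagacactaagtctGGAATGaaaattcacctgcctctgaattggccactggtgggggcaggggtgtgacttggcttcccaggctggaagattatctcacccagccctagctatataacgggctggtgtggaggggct
Amotl2: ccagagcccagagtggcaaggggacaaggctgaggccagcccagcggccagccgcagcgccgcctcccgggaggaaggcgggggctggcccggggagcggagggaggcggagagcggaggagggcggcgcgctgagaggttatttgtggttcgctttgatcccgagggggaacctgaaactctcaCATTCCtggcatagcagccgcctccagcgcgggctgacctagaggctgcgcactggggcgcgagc
Ptpn14: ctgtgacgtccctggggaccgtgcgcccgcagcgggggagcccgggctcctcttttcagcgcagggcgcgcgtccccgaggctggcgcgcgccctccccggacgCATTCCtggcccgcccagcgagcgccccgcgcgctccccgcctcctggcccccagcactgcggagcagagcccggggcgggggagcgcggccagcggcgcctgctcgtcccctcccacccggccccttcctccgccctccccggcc
Cnn2: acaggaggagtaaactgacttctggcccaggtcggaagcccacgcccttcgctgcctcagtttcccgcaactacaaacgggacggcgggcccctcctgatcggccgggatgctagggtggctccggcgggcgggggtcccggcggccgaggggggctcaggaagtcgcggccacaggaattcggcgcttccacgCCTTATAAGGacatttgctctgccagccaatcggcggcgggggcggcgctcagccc
Srf: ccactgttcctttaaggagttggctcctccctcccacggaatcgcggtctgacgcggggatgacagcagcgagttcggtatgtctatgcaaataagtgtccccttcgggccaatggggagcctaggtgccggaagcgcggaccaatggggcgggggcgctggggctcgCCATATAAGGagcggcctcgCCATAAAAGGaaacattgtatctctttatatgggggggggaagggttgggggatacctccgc
In build GRCm38.p6 these lie at chr3:145649986-145650235 (minus strand), chr19:36119845-36120094 (minus strand), chr9:102717554-102717803 (plus strand), chr1:189728018-189728267 (plus strand), chr10:79988350-79988599 (plus strand) and chr17:46556163-46556412 (minus strand). The motif of Ccn1 began 103 bases before the start, those of Ankrd1 210 and 123 bases before it, that of Amotl2 65 and that of Ptpn14 146. The CArG box of Cnn2 began 56 bases before the start, and Srf held CArG boxes at 82 and 62 bases.

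**Figure D1:**
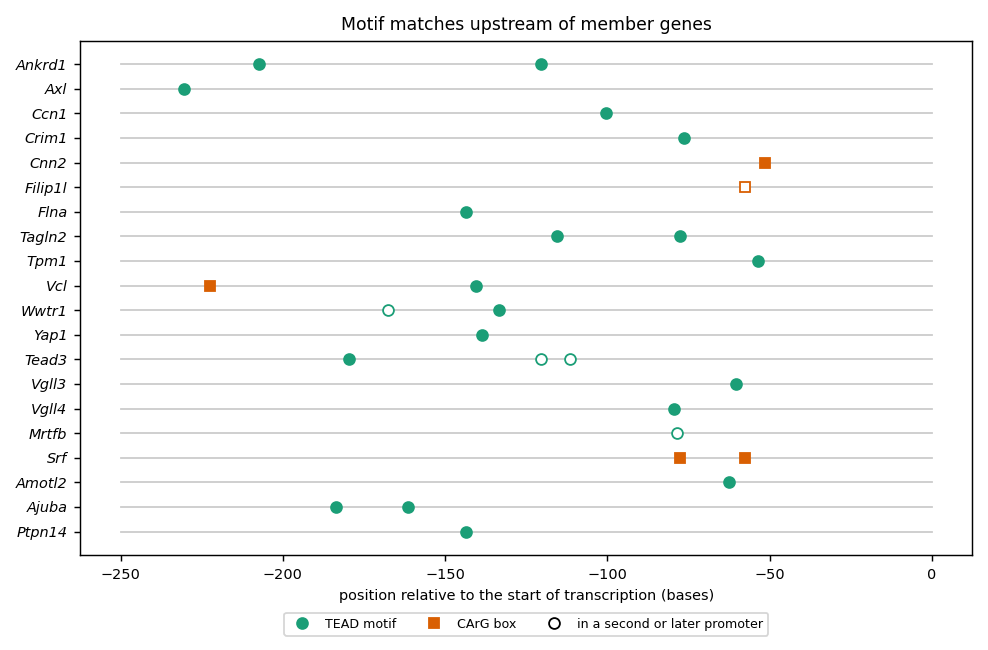
Positions of motif matches (x axis, bases relative to the start of transcription) in the 250 bases upstream of the 20 genes that hold at least 1 match. Circles are the TEAD motif and squares the CArG box; open symbols lie in a second or later promoter of the gene. Vcl is the 1 gene with both motifs.

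In cancer cells, Ccn1 and Ankrd1 rose in medium conditioned by PSC of either genotype. Both are widely used readouts of YAP. After 24 h in HT PSC medium Ccn1 was 1.81-fold and Ankrd1 1.75-fold the level in control medium, and in WT PSC medium they were 1.84-fold and 1.8-fold. Of the 32 genes tested, 9 were higher and 0 lower in HT PSC medium, where 5.47% of all 19686 genes passed (2.97% higher and 2.50% lower). In WT PSC medium 4 were higher and 0 lower, where 5.96% of all genes passed (2.80% higher and 3.15% lower). The median difference of the 32 genes was 0.22 in HT PSC medium and 0.19 in WT PSC medium, beside 0.01 and 0.03 over all genes tested. Differences were positive for 26 and 27 of the 32, beside 52.6% and 55.8% of all genes. The 2 comparisons share their 3 control arrays. In bulk samples such as these, a change in the share of a kind of cell and a change in RNA per cell cannot be told apart.

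**Figure D2:**
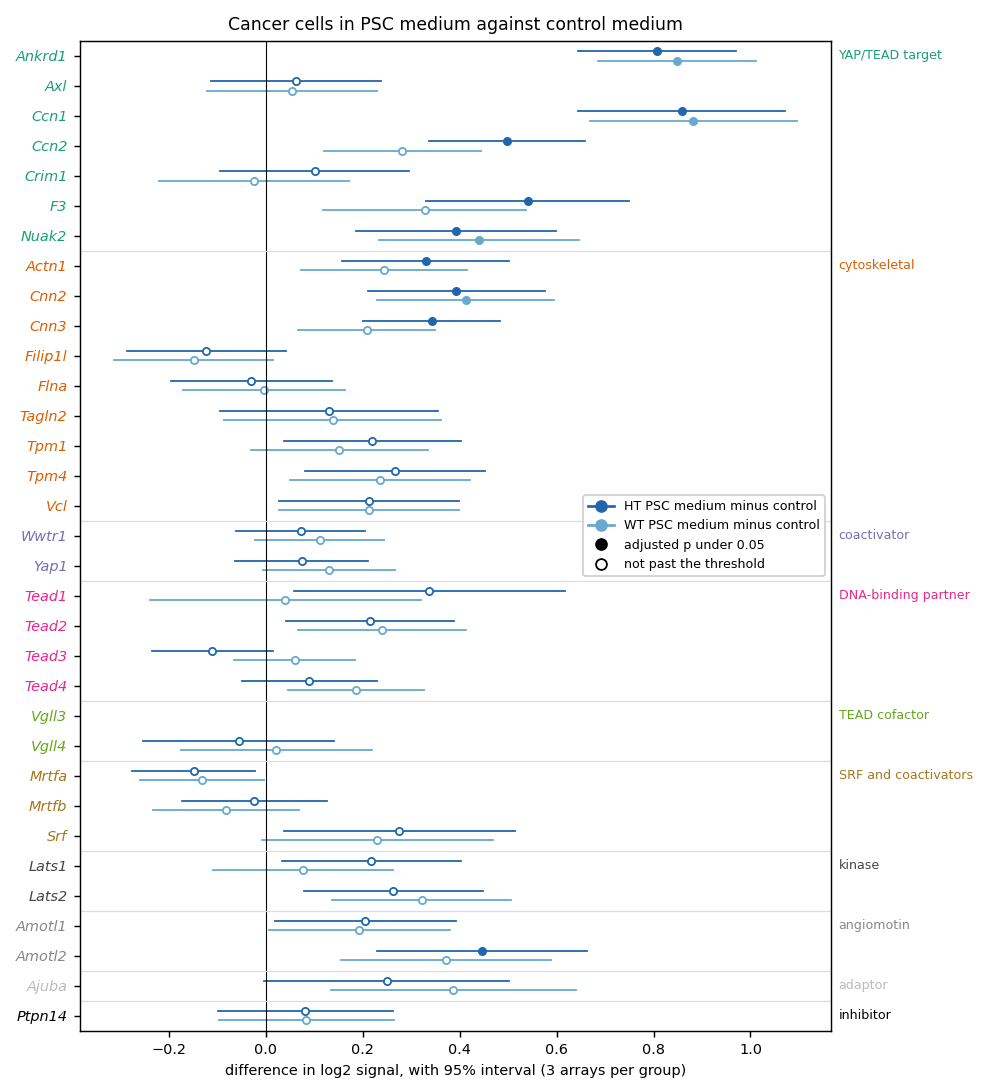
Differences in log2 signal (x axis) between conditioned and control medium for the 33 genes, grouped by role, in cancer cells. Points are differences with 95% intervals from 3 arrays per group, filled where the adjusted p is under 0.05; Vgll3 was not tested. The targets Ccn1 and Ankrd1 lie near 0.8 to 0.9 in both media, and the coactivators and TEAD genes have no filled point.

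Among the direct targets, Ccn1, a secreted matricellular protein, read 2.62, 2.86 and 2.80 in HT PSC medium and 2.78, 2.63 and 2.94 in WT PSC medium, against 1.92, 1.90 and 1.88 in control medium. Every array in conditioned medium lay above every control array, with differences of 0.86 ± 0.09 in HT PSC medium (adjusted p = 0.00203) and 0.88 ± 0.09 in WT PSC medium (adjusted p = 0.00126). Ankrd1, an ankyrin-repeat protein of the nucleus and the muscle sarcomere, read 4.55, 4.62 and 4.69 in HT PSC medium and 4.66, 4.62 and 4.71 in WT PSC medium, against 3.74, 3.77 and 3.92 in control medium. It too had no overlap with the controls, with differences of 0.81 ± 0.07 (adjusted p = 0.000937) and 0.85 ± 0.07 (adjusted p = 0.000468).

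Ccn2, the matricellular relative of Ccn1, read 5.20, 5.30 and 5.32 in HT PSC medium and 4.98, 5.02 and 5.17 in WT PSC medium, against 4.83, 4.78 and 4.72 in control medium. It passed the test in HT PSC medium (0.50 ± 0.07, adjusted p = 0.00635), and in WT PSC medium, where its arrays also lay above the controls, the difference was 0.28 ± 0.07 (adjusted p = 0.0572). In WT PSC medium Ccn2 passed when genes were read by their brightest probe with a transcript accession (adjusted p = 0.0389). F3, tissue factor, which starts blood clotting, read 3.39, 3.63 and 3.57 in HT PSC medium and 3.27, 3.27 and 3.42 in WT PSC medium, against 2.94, 2.91 and 3.13 in control medium. The differences of F3 were 0.54 ± 0.09 (adjusted p = 0.0141) and 0.33 ± 0.09 (adjusted p = 0.0808), of which that in HT PSC medium passed. Nuak2, an AMPK-related kinase, read 0.82, 0.73 and 0.80 in HT PSC medium and 0.78, 0.75 and 0.96 in WT PSC medium, against 0.22, 0.48 and 0.47 in control medium. Its differences of 0.39 ± 0.09 (adjusted p = 0.044) and 0.44 ± 0.09 (adjusted p = 0.0259) both passed. The remaining targets Axl, a receptor tyrosine kinase, and Crim1, a membrane protein that binds BMPs, had differences of 0.06 ± 0.08 and 0.10 ± 0.09 in HT PSC medium and 0.05 ± 0.08 and -0.02 ± 0.09 in WT PSC medium, with adjusted p of 0.59 to 0.895. In all, 5 of 7 direct targets passed in HT PSC medium and 3 of 7 in WT PSC medium.

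**Figure D3:**
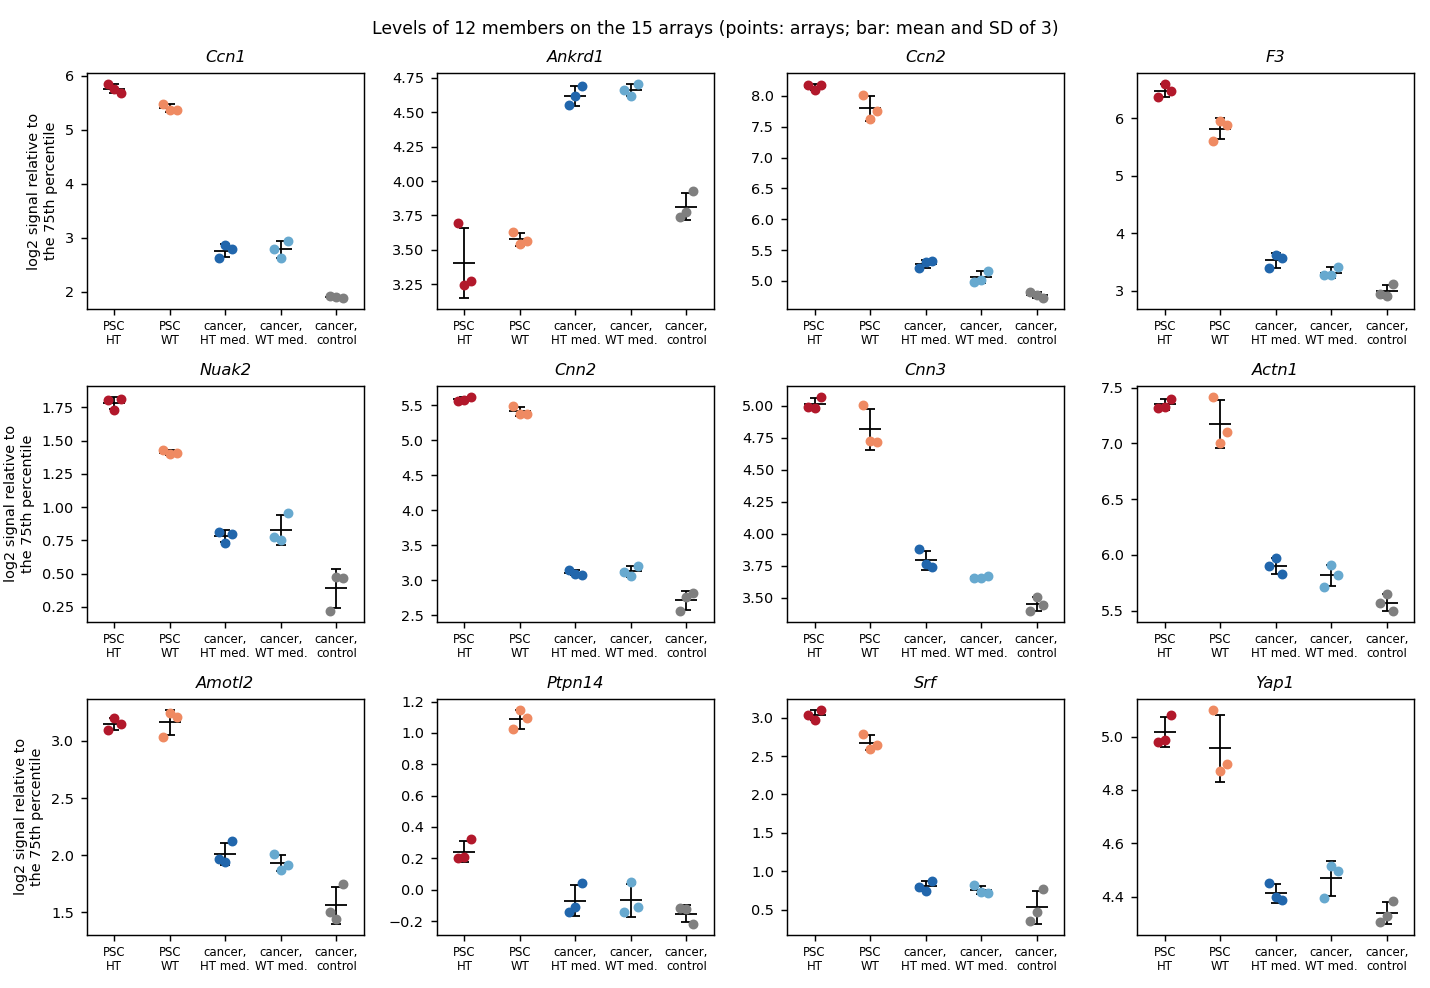
Log2 signal relative to the 75th percentile of the array (y axis, scale set per gene) for 12 genes in the 5 groups. Points are single arrays and bars the mean and SD of 3. Ccn1 and Ankrd1 sit higher on all 6 conditioned-medium arrays than on the 3 controls, Ankrd1 is the one gene of the 12 whose 6 PSC arrays all lie below the cancer cells, and Ptpn14 is lower on the 3 PSC HT arrays.

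Of the 9 cytoskeletal genes, 3 passed in HT PSC medium and 1 in WT PSC medium, all higher. Cnn2, the calponin with a CArG box, read 3.14, 3.10 and 3.08 in HT PSC medium and 3.12, 3.06 and 3.21 in WT PSC medium, against 2.56, 2.77 and 2.81 in control medium. Its differences were 0.39 ± 0.08 (adjusted p = 0.0275) and 0.41 ± 0.08 (adjusted p = 0.0198). Cnn3, a second actin-binding calponin, read 3.88, 3.76 and 3.74 in HT PSC medium and 3.66, 3.66 and 3.67 in WT PSC medium, against 3.40, 3.51 and 3.45 in control medium. The groups did not overlap, and the difference passed in HT PSC medium (0.34 ± 0.06, adjusted p = 0.0178) but not in WT PSC medium (0.21 ± 0.06, adjusted p = 0.0964). With the mean of its probes in place of the brightest, the difference in HT PSC medium was 0.07 and did not pass (adjusted p = 0.801). Actn1, which crosslinks actin filaments, read 5.90, 5.98 and 5.83 in HT PSC medium and 5.72, 5.91 and 5.82 in WT PSC medium, against 5.57, 5.65 and 5.50 in control medium. Its arrays lay above the controls in both, and the difference passed in HT PSC medium (0.33 ± 0.08, adjusted p = 0.0423) but not in WT PSC medium (0.24 ± 0.08, adjusted p = 0.107). The other 6, namely the tropomyosins Tpm1 and Tpm4, vinculin (Vcl), transgelin-2 (Tagln2), filamin A (Flna) and the filamin-interacting Filip1l, had -0.12 (Filip1l) to 0.27 (Tpm4) in HT PSC medium and -0.15 (Filip1l) to 0.24 (Tpm4) in WT PSC medium, none past the threshold.

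The transcription factors and coactivators themselves did not pass the test in either medium: 0 of 9 were called, with differences of -0.15 to 0.34 in HT PSC medium and -0.13 to 0.24 in WT PSC medium. Yap1 read 4.45, 4.40 and 4.39 in HT PSC medium and 4.39, 4.52 and 4.50 in WT PSC medium, against 4.31, 4.33 and 4.38 in control medium, and its 95% intervals were -0.06 to 0.21 and -0.01 to 0.27. Wwtr1, which encodes TAZ, read 4.34, 4.25 and 4.24 in HT PSC medium and 4.29, 4.32 and 4.34 in WT PSC medium, against 4.15, 4.23 and 4.24 in control medium, with intervals of -0.06 to 0.20 and -0.02 to 0.24. For both coactivators every conditioned-medium array lay just above the controls, and neither difference passed. Srf read 0.80, 0.74 and 0.87 in HT PSC medium and 0.82, 0.73 and 0.72 in WT PSC medium, against 0.35, 0.47 and 0.76 in control medium. The Srf controls spread more widely than the other 2 groups, and 1 control overlapped both (0.28 ± 0.10, adjusted p = 0.184, and 0.23 ± 0.10, adjusted p = 0.263). Without replicate 3 of the controls Srf passed in both media (differences of 0.39 and 0.35). Mrtfa, which encodes MRTF-A, read 2.91, 2.88 and 2.93 in HT PSC medium and 2.96, 2.91 and 2.90 in WT PSC medium, against 3.09, 3.07 and 3.01 in control medium. It was the 1 gene of the 32 below every control array in both media, with differences of -0.15 ± 0.06 and -0.13 ± 0.06 (adjusted p = 0.179 and 0.23). Mrtfb read 1.68, 1.71 and 1.73 in HT PSC medium and 1.56, 1.72 and 1.67 in WT PSC medium, against 1.65, 1.79 and 1.75 in control medium, with all 3 groups overlapping.

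The 4 TEAD genes, which encode the DNA-binding partners, differed little and not in step. Tead1 read 1.97, 2.01 and 2.03 in HT PSC medium and 1.93, 1.78 and 1.41 in WT PSC medium, against 1.74, 1.67 and 1.58 in control medium. Tead2 read 3.97, 3.87 and 3.98 in HT PSC medium and 3.88, 3.95 and 4.07 in WT PSC medium, against 3.63, 3.74 and 3.81 in control medium. Both lay above the controls in HT PSC medium (0.34 ± 0.12, adjusted p = 0.169, and 0.21 ± 0.08, adjusted p = 0.157), while in WT PSC medium Tead1 overlapped them. Tead3 read 0.75, 0.77 and 0.82 in HT PSC medium and 0.92, 0.94 and 0.99 in WT PSC medium, against 0.90, 0.87 and 0.91 in control medium. Its arrays lay below the controls in HT PSC medium and above them in WT PSC medium, and neither difference passed (-0.11 ± 0.05 and 0.06 ± 0.05, adjusted p = 0.315 and 0.586). Tead4 read 0.09, -0.02 and -0.05 in HT PSC medium and 0.10, 0.13 and 0.07 in WT PSC medium, against -0.05, -0.08 and -0.13 in control medium. It overlapped the controls in HT PSC medium and lay above them in WT PSC medium (0.19 ± 0.06, adjusted p = 0.127), where it passed with the mean of its probes (0.33, adjusted p = 0.0271).

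Among the regulators of YAP was Amotl2, an angiomotin that binds YAP and is itself a known YAP target. Amotl2 read 1.96, 1.94 and 2.12 in HT PSC medium and 2.01, 1.87 and 1.92 in WT PSC medium, against 1.50, 1.44 and 1.75 in control medium. It passed in HT PSC medium (0.45 ± 0.10, adjusted p = 0.0329) and had 0.37 ± 0.10 in WT PSC medium (adjusted p = 0.0612), with no overlap with the controls in either. Lats2, a kinase that phosphorylates YAP, had 0.26 ± 0.08 in HT PSC medium and 0.32 ± 0.08 in WT PSC medium (adjusted p = 0.109 and 0.0568). Its paralogue Lats1, the LIM protein Ajuba, which binds LATS kinases, the angiomotin Amotl1, Ptpn14 and Vgll4, a cofactor that competes with YAP for TEAD, had -0.06 (Vgll4) to 0.25 (Ajuba) in HT PSC medium and 0.02 (Vgll4) to 0.39 (Ajuba) in WT PSC medium, none called.

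The rises of Ccn1 and Ankrd1 were of like size on both slides. In HT PSC medium Ccn1 had 0.86 in the fit blocked by slide, 0.81 on slide 1 and 0.96 on slide 2, and Ankrd1 had 0.81 in the fit blocked by slide, 0.79 on slide 1 and 0.84 on slide 2. In WT PSC medium the corresponding values were 0.87, 0.88 and 0.88 for Ccn1 and 0.85, 0.83 and 0.89 for Ankrd1. The median of all 32 genes was 0.22 in a fit blocked by slide, 0.22 on slide 1 and 0.20 on slide 2 in HT PSC medium, and 0.18, 0.19 and 0.18 in WT PSC medium. Slide 1 held 2 HT PSC medium, 1 WT PSC medium and 2 control arrays, and slide 2 held 1, 2 and 1. Within either slide 0 of the 32 genes passed, Ccn1 and Ankrd1 included.

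Leaving out any 1 array kept the calls of Ccn1 and Ankrd1 in both media and of Ccn2 in HT PSC medium, but not the count. In HT PSC medium the 9 calls became 3 without control 1, 4 without control 2 and 4 without any 1 of the 3 HT PSC medium arrays. There Nuak2 and Actn1 lost their calls whichever array was left out (adjusted p of 0.062 to 0.146 and 0.0674 to 0.132), Amotl2 and Cnn2 kept theirs in 1 of the 6 fits, F3 in 2 and Cnn3 in 4. In WT PSC medium the 4 calls became 2 without WT PSC medium 1 or 3, and 7 without control 3. Cnn2 kept its call in 4 and Nuak2 in 2 of those 6 fits.

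Further genes of the pathways were read from 4 lists of other genes, chosen, like the 33, with earlier results of these data known. Of 19 other YAP targets tested, 6 were higher and 0 lower in HT PSC medium, and 6 higher and 1 lower in WT PSC medium. The stress-response genes Gadd45a (0.75 ± 0.07 in HT PSC medium and 0.51 ± 0.07 in WT PSC medium) and Gadd45b (0.35 ± 0.06 and 0.50 ± 0.06) and the collagen chain Col8a1 (0.76 ± 0.09 and 0.90 ± 0.09) rose in both media, as did thrombospondin-1, Thbs1 (0.70 ± 0.11 and 0.56 ± 0.11). The list's medians were 0.08 and 0.07. The share called was 31.6% in HT PSC medium and 36.8% in WT PSC medium, beside 5.47% and 5.96% of all genes.

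Of 21 other MRTF and SRF targets tested, 2 were higher and 0 lower in HT PSC medium, and 2 higher and 1 lower in WT PSC medium, or 9.52% and 14.3%. Smoothelin (Smtn), a contractile protein, rose by 0.54 ± 0.05 and 0.58 ± 0.05, and the PDZ and LIM protein Pdlim7 by 0.30 ± 0.07 and 0.33 ± 0.07. The LIM protein Fhl1 was lower in WT PSC medium (-0.45 ± 0.07, adjusted p = 0.00853), with -0.19 ± 0.07 in HT PSC medium (adjusted p = 0.182). Of 10 genes of the other SRF branch, which pairs SRF with ternary complex factors and drives immediate early genes, 6 were higher in HT PSC medium and 3 in WT PSC medium, with 0 lower in either, or 60% and 30%. The early growth response gene Egr1 had 0.71 ± 0.09 in HT PSC medium (adjusted p = 0.00303) and 0.23 ± 0.09 in WT PSC medium (adjusted p = 0.179), and Fos had 0.54 ± 0.11 (adjusted p = 0.028) and 0.17 ± 0.11 (adjusted p = 0.426). Fosb, a Fos relative (0.63 ± 0.09 and 0.52 ± 0.09), Junb, a Jun relative (0.39 ± 0.09 and 0.43 ± 0.09), and the ternary complex factor Elk3 (0.30 ± 0.07 and 0.32 ± 0.07) passed in both media. Of 20 other Hippo pathway components, 1 was higher in HT PSC medium and 0 in WT PSC medium, or 5% and 0%. That gene was the kinase Map4k4 (0.27 ± 0.06, adjusted p = 0.0301, with 0.18 ± 0.06 in WT PSC medium), and the next by p were the Hippo kinase Stk3 in HT PSC medium (0.26 ± 0.08, adjusted p = 0.099) and Frmd6 in WT PSC medium (0.37 ± 0.11, adjusted p = 0.101).

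The design also asks whether medium from HT PSC acts differently from medium from WT PSC. None of the 32 genes passed in that direct comparison, and 0 of 19686 genes did over the whole array (0%), with 4 of the 32 and 960 of all genes at an unadjusted p under 0.05. The 4 were Tead3 (-0.17 ± 0.05), Ccn2 (0.22 ± 0.07), Tead1 (0.30 ± 0.12) and F3 (0.21 ± 0.09), at adjusted p of 0.969 to 0.984. Of these, Tead3, Ccn2 and Tead1 had no overlap between the media, as the arrays given above show, and F3 overlapped. The median of the 32 differences was -0.0012, and the 95% intervals lay between -0.39 and 0.58. For Ccn1 and Ankrd1 the difference between media was -0.02 ± 0.09 (95% interval -0.24 to 0.19) and -0.04 ± 0.07 (95% interval -0.20 to 0.12). Of the 4 other lists 0 genes passed. The smallest p fell on Egr1 (0.48 ± 0.09) and Egr2 (0.44 ± 0.11) of the immediate early genes, Nt5e (0.22 ± 0.06) and Gadd45a (0.24 ± 0.07) of the YAP targets, Fhl1 (0.26 ± 0.07) and Flnc (-0.19 ± 0.08) of the MRTF and SRF targets, and Mob1b (0.27 ± 0.08) and Stk3 (0.14 ± 0.08) of the Hippo components, at adjusted p of 0.876 to 0.984.

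Between the PSC genotypes, 4 of the 33 genes passed the test. F3, Nuak2 and Ccn1 were higher in PSC HT, by 1.28- to 1.59-fold, and Ptpn14, a phosphatase that binds YAP and keeps it in the cytoplasm, was lower. Over all 20886 genes 7.73% passed (2.95% higher and 4.78% lower in PSC HT), beside 3 of 33 and 1 of 33 here. The median difference was 0.08, beside -0.0028 over all genes, and 22 of the 33 differences were positive, beside 49.4% of all genes.

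Ptpn14 read 0.20, 0.21 and 0.32 in PSC HT, against 1.03, 1.15 and 1.09 in PSC WT. The groups did not overlap, and the level fell by 0.85 ± 0.07 (adjusted p = 0.00217). Its 4 probes, which lie between chr1:191622478 and chr1:191699838 in build mm9 of the array annotation, were all lower in PSC HT, with differences of -0.95 to -0.52. F3 read 6.37, 6.60 and 6.47 in PSC HT, against 5.61, 5.96 and 5.88 in PSC WT, a difference of 0.67 ± 0.12 (adjusted p = 0.023). Nuak2 read 1.81, 1.73 and 1.81 in PSC HT, against 1.43, 1.40 and 1.40 in PSC WT, a difference of 0.37 ± 0.07 (adjusted p = 0.0243). Ccn1 read 5.84, 5.75 and 5.67 in PSC HT, against 5.48, 5.36 and 5.36 in PSC WT, a difference of 0.36 ± 0.08 (adjusted p = 0.0486). In all 3 of these genes every PSC HT array lay above every PSC WT array.

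**Figure D4:**
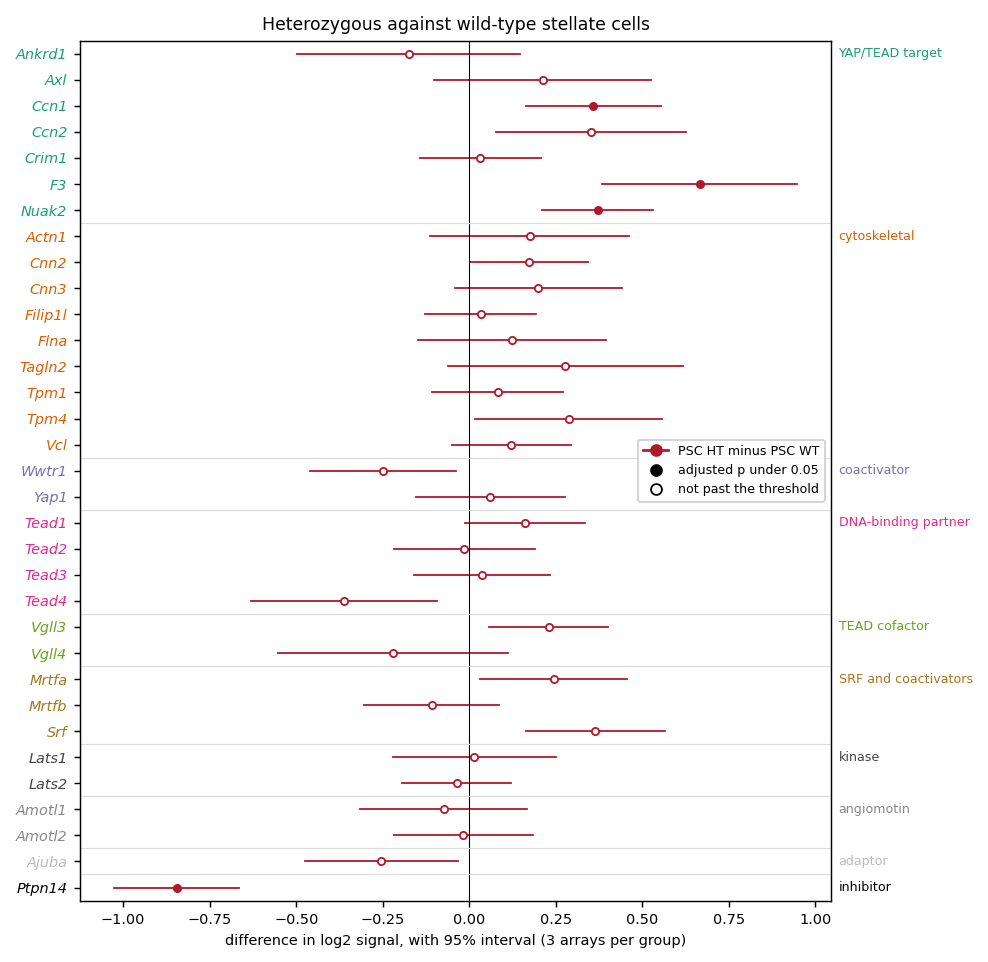
Differences in log2 signal (x axis) between PSC HT and PSC WT for the 33 genes, grouped by role. Points are differences with 95% intervals from 3 arrays per group, filled where the adjusted p is under 0.05. Ptpn14 lies at -0.85, the targets F3, Nuak2 and Ccn1 at 0.67, 0.37 and 0.36, and all 9 cytoskeletal genes lie at or above 0.03 without a filled point.

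Ccn2 read 8.17, 8.09 and 8.18 in PSC HT, against 8.02, 7.62 and 7.75 in PSC WT. Its groups did not overlap, but PSC WT spread over a wide range and the difference of 0.35 ± 0.11 did not pass (adjusted p = 0.132), except without PSC WT 1 (0.46) or with all 15 arrays in 1 fit. Ankrd1 read 3.70, 3.24 and 3.27 in PSC HT, against 3.63, 3.54 and 3.56 in PSC WT, so that PSC HT 1 lay above and the other 2 below all PSC WT arrays (-0.18 ± 0.13, adjusted p = 0.52). Among the remaining targets Axl had 0.21 ± 0.13 and Crim1 0.03 ± 0.07, at adjusted p of 0.416 and 0.864. The 9 cytoskeletal genes had small positive differences, of 0.03 (Filip1l) to 0.29 (Tpm4), and 0 of the 9 passed. PSC WT 1 lay above every PSC HT array for Actn1, Flna and Tagln2. The groups did not overlap for Cnn2, Vcl and Tpm4, and they overlapped for the rest.

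Srf read 3.03, 2.97 and 3.10 in PSC HT, against 2.78, 2.59 and 2.64 in PSC WT. The groups did not overlap, and the difference of 0.36 ± 0.08 lay just outside the threshold (adjusted p = 0.0506). It passed with normexp background correction, with quantile normalization and in the authors' deposited log2 table, at adjusted p of 0.0483, 0.0230 and 0.0185. It also passed with the brightest probe that has a transcript accession, with all 15 arrays in 1 fit and without PSC WT 1. Mrtfa read 4.70, 4.60 and 4.72 in PSC HT, against 4.56, 4.33 and 4.39 in PSC WT (0.24 ± 0.09, adjusted p = 0.17), and Mrtfb read 1.75, 1.86 and 1.85 in PSC HT, against 1.82, 1.97 and 2.00 in PSC WT (-0.11 ± 0.08, adjusted p = 0.51). Mrtfa had no overlap between the groups and passed with all 15 arrays in 1 fit (adjusted p = 0.0332), and Mrtfb overlapped. Yap1 read 4.98, 4.99 and 5.08 in PSC HT, against 5.10, 4.87 and 4.90 in PSC WT, with a 95% interval of -0.15 to 0.28 for the difference. Wwtr1 read 4.03, 4.09 and 4.12 in PSC HT, against 4.47, 4.23 and 4.28 in PSC WT. All its PSC HT arrays were lower (-0.25 ± 0.09, adjusted p = 0.16), and it passed after quantile normalization (adjusted p = 0.0432), in the authors' deposited log2 table (adjusted p = 0.0379) and with all 15 arrays in 1 fit (adjusted p = 0.0327).

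Of the TEAD genes, Tead1 read 3.47, 3.54 and 3.54 in PSC HT, against 3.38, 3.40 and 3.28 in PSC WT, and Tead4, much dimmer in PSC than in the cancer cells, read -3.23, -3.40 and -3.01 in PSC HT, against -2.80, -2.85 and -2.90 in PSC WT. Tead1 was higher and Tead4 lower on every PSC HT array, with differences of 0.16 ± 0.07 and -0.36 ± 0.11 (adjusted p = 0.263 and 0.118). Tead4 passed with all 15 arrays in 1 fit (adjusted p = 0.0166). Tead2 read 2.98, 2.93 and 2.97 in PSC HT, against 3.10, 2.95 and 2.86 in PSC WT, and Tead3 read 3.44, 3.49 and 3.59 in PSC HT, against 3.44, 3.41 and 3.57 in PSC WT, with overlapping groups in both. Vgll3, a TEAD cofactor, had 0.23 ± 0.07 and Ajuba -0.25 ± 0.09, neither past the threshold (adjusted p = 0.118 and 0.169). Lats1, Lats2, Amotl1, Amotl2 and Vgll4 had -0.22 (Vgll4) to 0.01 (Lats1), none called.

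Ptpn14 kept its call whichever 1 array was left out, whereas F3 kept its call in 2, Nuak2 in 1 and Ccn1 in 0 of these 6 fits, with differences of 0.56 to 0.74, 0.36 to 0.40 and 0.32 to 0.40. F3 also lost its call with quantile normalization (adjusted p = 0.0899) and in the authors' deposited log2 table (adjusted p = 0.0629). Ccn1 lost its call in both (adjusted p = 0.055 and 0.2), with normexp (adjusted p = 0.128) and with the mean of probes (adjusted p = 0.0669). With the replicate number as a block, Nuak2 and Ccn1 did not pass (adjusted p = 0.0893 and 0.096). Without the filter on dim probes, F3, Nuak2 and Ccn1 did not pass. Over all 17 alternatives Ptpn14 was called in 15, F3 and Nuak2 in 8 each and Ccn1 in 2, with the same sign in all 17. Without PSC HT 3 the differences were -0.88 for Ptpn14 (adjusted p = 0.00867), 0.67 for F3 (adjusted p = 0.0697), 0.36 for Nuak2 (adjusted p = 0.0864) and 0.40 for Ccn1 (adjusted p = 0.0832). The 4 calls became 1 without PSC HT 3, PSC HT 2, PSC WT 2 or PSC WT 3, and 2 without PSC HT 1. Ptpn14 had -0.84 in the fit blocked by slide, -0.76 on slide 1 and -0.91 on slide 2, and F3 had 0.75 in the fit blocked by slide, 0.81 on slide 1 and 0.68 on slide 2. Nuak2 had 0.35 in the fit blocked by slide, 0.38 on slide 1 and 0.33 on slide 2, and Ccn1 had 0.34 in the fit blocked by slide, 0.28 on slide 1 and 0.40 on slide 2. Ccn1 was not called with slide as a block (adjusted p = 0.0787), and 0 of the 33 genes passed within either slide. The median of the 33 differences was 0.07 in the fit blocked by slide, 0.02 on slide 1 and 0.13 on slide 2.

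Many markers of the macrophage, mesothelial and endothelial lists moved with genotype. Of 14 macrophage markers tested 11 were higher in PSC HT and 0 lower, and the median level of the list was 1.09 to 1.79 on PSC HT arrays and -1.53 to -0.39 on PSC WT arrays, with Cd68 at 1.48 to 3.13 in PSC HT and -0.27 to 0.38 in PSC WT. Of 8 mesothelial markers 6 were lower in PSC HT and 0 higher, with a median level of -0.51 to -0.23 on PSC HT arrays and 1.61 to 2.22 on PSC WT arrays. Of 7 endothelial markers 5 were lower and 0 higher, with a median level of -4.42 to -4.20 on PSC HT arrays and -3.04 to -2.89 on PSC WT arrays. The mesothelial marker Upk3b read -0.46 to 0.01 in PSC HT and 2.21 to 2.74 in PSC WT. The first marker of each list overlapped between the genotypes. Macrophage Ptprc read 1.56 to 1.95 in PSC HT and 1.63 to 2.06 in PSC WT. The Ptprc probe read 1.30 to 2.13 on the cancer cell arrays too, so it does not tell macrophages from cancer cells here. Mesothelial Msln read 0.24, 1.36 and 2.56 in PSC HT and 2.25 to 2.89 in PSC WT, so that it overlapped through PSC HT 3 alone. That is the array set apart above by Cdh1, and Msln read 7.29 to 7.66 on the control medium arrays of the cancer cells. Endothelial Pecam1 read -4.35 to -3.80 in PSC HT and -4.03 to -3.59 in PSC WT. The part of macrophages, mesothelial and endothelial cells in the differences of Ptpn14, F3, Nuak2 and Ccn1 was not tested.

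Of the 4 other lists, the share called was 10% for YAP targets, 8.33% for MRTF and SRF targets, 4.76% for Hippo components and 0% for immediate early genes, beside 7.73% of all genes. Of 20 other YAP targets 1 was higher and 1 lower in PSC HT, the secreted protein Fjx1 (0.42 ± 0.09, adjusted p = 0.0488) and Col8a1 (-0.80 ± 0.09, adjusted p = 0.00453). Of 24 other MRTF and SRF targets 2 were higher and 0 lower, the smooth muscle gamma-actin Actg2 (0.39 ± 0.08, adjusted p = 0.0324) and leiomodin-1, Lmod1 (0.41 ± 0.09, adjusted p = 0.0485), with a list median of 0.19 and 22 of 24 differences positive. Of 21 other Hippo components 1 was higher, the large cadherin Fat4 (0.47 ± 0.09, adjusted p = 0.0277), and the next by p was Amot, the founding angiomotin (-0.28 ± 0.08, adjusted p = 0.0855). Of 11 immediate early genes and their factors 0 passed, with Fos (-0.30 ± 0.09, adjusted p = 0.126) and Fosb (-0.53 ± 0.22, adjusted p = 0.234) at the smallest p.

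The last comparison sets PSC WT beside cancer cells in control medium, across which 24 of the 33 genes were higher and 2 lower in PSC WT. The 24 include Vgll3, which entered the test through its PSC WT arrays alone and is given below as a bound. The same filter held for all genes, so the shares over all genes can include such genes too. In this comparison 71.4% of all 21924 genes passed (36.1% higher and 35.2% lower). The median difference of the 33 was 1.60, beside 0.04 over all genes. The higher genes took in 5 of 7 direct targets, 8 of 9 cytoskeletal genes, Lats2, both angiomotins, Ptpn14, Srf, Mrtfa, Vgll3, Vgll4, Yap1, Tead1 and Tead3.

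Vgll3 gave the widest separation. It read 5.20, 5.22 and 5.22 in PSC HT and 4.90, 5.02 and 5.04 in PSC WT, while in the cancer cells it was not well above background on any of 9 arrays. In PSC WT it was at least 1488-fold higher than in control medium, a bound set by the higher of each control array's background floor and its own reading. Vgll3 entered this test through the PSC WT arrays alone. Its control readings all lay below that floor, so no p-value is given for it. Its dimmer probe was well above background on 3 of 3 PSC WT arrays too, and on 0 of 3 in control medium. Ccn1 differed by 3.50 ± 0.08, or 11.3-fold, and Ccn2 by 3.02 ± 0.12, or 8.11-fold, with the readings given above. Tropomyosin Tpm1 read 5.82, 5.81 and 5.90 in PSC WT, against 2.91, 2.87 and 3.10 in control medium, a difference of 2.88 ± 0.10. Amotl1 read -0.84, -0.95 and -0.89 in PSC WT, against -3.31, -3.21 and -3.35 in control medium, a difference of 2.40 ± 0.08. In Ccn1, Ccn2, Tpm1 and Amotl1 the groups lay far apart relative to their spread (adjusted p of 1.24e-06 or less).

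The TEAD genes divided between the cell types. Tead3 was higher in PSC WT by 2.58 ± 0.08 and Tead1 by 1.69 ± 0.09, while Tead4 and Tead2 were lower, by differences of -2.76 ± 0.08 and -0.75 ± 0.10. On the PSC arrays Tead4 read between -3.40 and -2.80, against -0.13 to -0.05 in control medium. Yap1 was higher in PSC WT by 0.62 ± 0.10 (adjusted p = 0.00112), whereas Wwtr1 had 0.12 ± 0.10 with a 95% interval of -0.11 to 0.35 (adjusted p = 0.296). Srf was higher by 2.14 ± 0.13 and Mrtfa by 1.37 ± 0.09, and Mrtfb had 0.20 ± 0.09 (adjusted p = 0.0977). Besides Wwtr1 and Mrtfb, the genes that did not pass were Ankrd1 (-0.23 ± 0.09, adjusted p = 0.0506), Ajuba (-0.24 ± 0.13), Tagln2 (-0.22 ± 0.15), Axl (0.20 ± 0.14) and Lats1 (0.20 ± 0.09). Ankrd1 passed with normexp, quantile normalization and the brightest probe that has a transcript accession (adjusted p = 0.0458, 0.0406 and 0.0393). Mrtfb passed with the mean of its probes (0.74, adjusted p = 0.00512), all 15 arrays in 1 fit (adjusted p = 0.0202) and without PSC WT 1 (adjusted p = 0.0481).

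**Figure D5:**
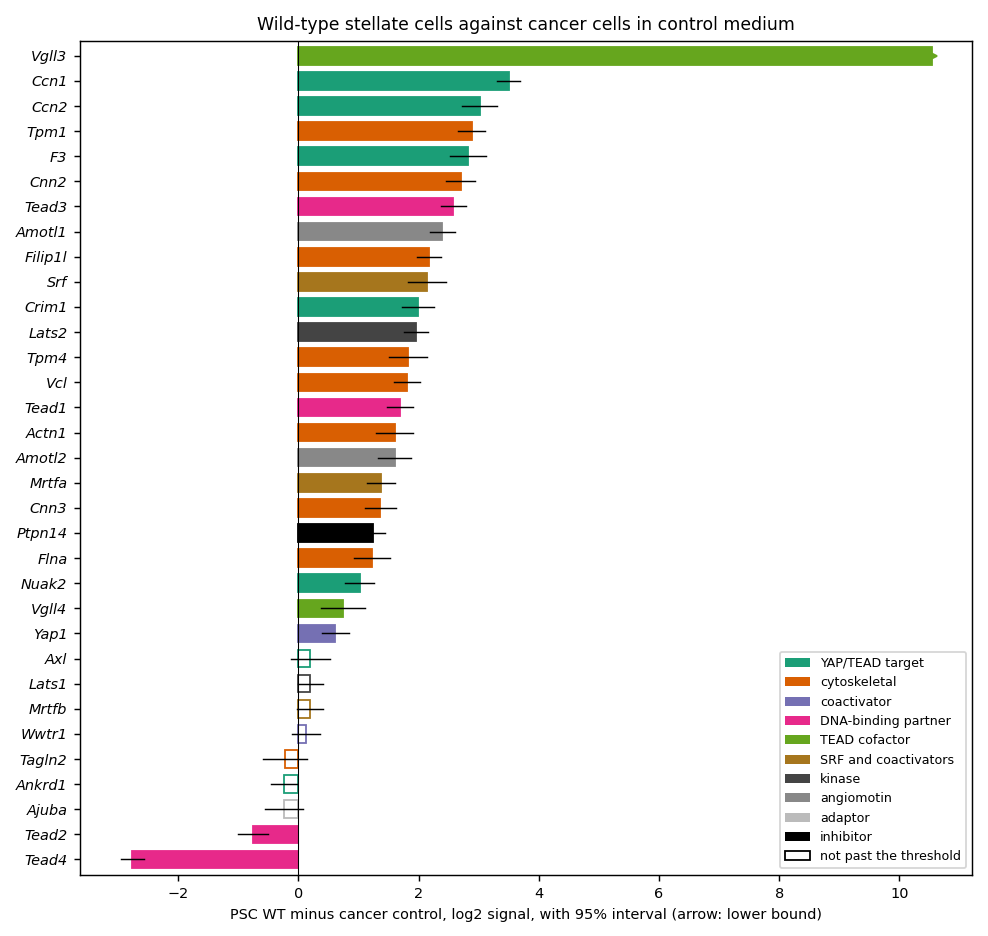
Differences in log2 signal (x axis) between PSC WT and cancer cells in control medium for the 33 genes, in order of size and coloured by role, with 95% intervals from 3 arrays per group. Vgll3 is drawn at its lower bound (arrow), open bars did not pass the threshold, and Tead4 and Tead2 are the 2 filled bars below 0.

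With slide as a block 26 of the 33 genes passed between the cell types, within slide 1 25 and within slide 2 26, with medians of 1.60, 1.58 and 1.40. Leaving out any 1 array left 26 to 28, and Vgll3 was counted in every one of these fits. Of the other lists, called shares were 95.8% for MRTF and SRF targets, 90.5% for YAP targets and 72.7% for immediate early genes, beside 71.4% of all genes. There 22 of 24 MRTF and SRF targets were higher in PSC WT and 1 lower, among them calponin-1, Cnn1 (12.61 ± 0.20), the myosin light chain Myl9 (10.33 ± 0.17), Fhl1 (8.24 ± 0.12) and Lmod1, which was not well above background in control medium and at least 63.4-fold higher. Of 21 other YAP targets 14 were higher and 5 lower, with follistatin-like Fstl1 (11.01 ± 0.15), the growth factor Tgfb2 (6.51 ± 0.11) and Dlc1 (at least 96.8-fold) higher and the ectonucleotidase Nt5e lower (-5.46 ± 0.12). Of 21 other Hippo components 8 were higher and 7 lower, or 71.4%, the same share as of all genes. Fat4 was at least 9.64-fold higher, and Wwc1, which encodes KIBRA (-3.70 ± 0.17), and Amot (-1.54 ± 0.08) were lower. Of 11 immediate early genes and their factors 6 were higher and 2 lower, with Egr2 (8.39 ± 0.14), Egr3 (at least 77.4-fold), Fos (3.17 ± 0.09) and Egr1 (4.10 ± 0.13) at the smallest p.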

How the data were processed

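RNA of 15 samples was labelled with Cy3 and hybridised to Agilent one-colour mouse arrays, per the labels' protocols, and, per the file headers, the scans were read by Agilent's software (Feature Extraction 10.7.3.1). The deposited scanner files hold each spot's background-corrected processed intensity, per the file headers. The authors' deposited value table holds log2 values of the same arrays and served as an alternative.

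Here the log2 of the processed intensity minus the 75th percentile of each array was used. Outlier spots were left out, spots of a probe averaged, and the probe brightest over all arrays stood for its gene. Genes whose probe reached well above background throughout 1 or more groups of a fit were tested, with limma 3.58.1 in R 4.3.3, Benjamini-Hochberg adjustment and a threshold of 0.05. The 6 PSC arrays, the 9 cancer cell arrays, and the 6 arrays of PSC WT and control medium were fitted apart. These steps were tested on simulated data.

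The members and lists were chosen with earlier results of these data known. Genes with values are the members and, in each other list and comparison, those with the smallest p, some of which are not reported here. Promoters were credited to RefSeq (GRCm38.p6), probe positions to the array annotation (mm9). Same-numbered arrays of WT PSC medium and control medium deviated together weakly (correlations of 0.14, 0.21 and 0.20). In the other comparisons the correlations lay between -0.17 and 0.23. Whether the numbers pair the arrays was thus not settled. The differences, SE and p-values above come from fits without pairing, except where a replicate block is named. With the replicate number as a block, 4 members passed in WT PSC medium, as without it. Alternatives were background correction, normalization, filter, choice of probe, slide, replicate block, a fit of all arrays, the authors' table and leaving out each array.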

Additional observations from a re-analysis of the deposited data

How the results depend on the processing

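No called gene of the 33 changed direction under the alternatives run. Among genes not called, signs were followed for Yap1, Wwtr1, the TEAD genes, Srf, Mrtfa, Mrtfb, Ccn1, Ccn2 and Ankrd1 only. Counting each gene in each alternative, the sign changed in 6 of 187 cases between PSC genotypes, 4 of 170 in WT PSC medium and 3 of 153 in HT PSC medium. It changed in 8 of 204 cases between the media and 0 of 48 between cell types. The 4 genes called between PSC genotypes became 1 without the filter on dim probes, 0 within either slide and 9 with all 15 arrays in 1 fit, and 1 to 6 when single arrays were left out. In WT PSC medium the 4 calls became 2 without the filter, 7 with the brightest probe that has a transcript accession, 0 within either slide, and 2 to 7 when single arrays were left out. In HT PSC medium the 9 calls became 3 without the filter, 0 within either slide, and 3 to 8 when single arrays were left out. Between cell types 26 to 28 passed when single arrays were left out. Over all genes the 1615 genotype calls became 401 without the filter, 0 and 433 within slides 1 and 2, 2484 with all 15 arrays and 552 to 1280 without single arrays. The 1173 calls in WT PSC medium became 467 without the filter, 770 with the mean of all probes, 166 and 64 within slides 1 and 2, and 577 to 1004 without single arrays. The 1077 calls in HT PSC medium became 334 without the filter, 674 with the mean of all probes, 0 within either slide and 496 to 871 without single arrays. Between the media the 0 calls of limma, with 960 genes at an unadjusted p under 0.05, became 1 with normexp, 115 within slide 1, 1 with all 15 arrays, and 1 to 6 where leaving out single arrays gave any. Between cell types 14235 to 15492 genes passed without single arrays. Within a slide most comparisons set 1 array against 2; HT PSC medium against control medium had 2 against 2 on slide 1 and 1 against 1 on slide 2, and a lone array was assumed to vary like the other groups. With the replicate number as a block, 2 genes of the 33 passed between genotypes, 4 in WT PSC medium, 7 in HT PSC medium, 0 between the media and 26 between cell types. The array number limits the precision, and Vgll3 in cancer cells was below what the signal over background can measure.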

Other observations

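Probes of 1 gene did not always give the same difference. Of the 4 probes of Tpm1, a tropomyosin with many isoforms, 3 were higher in PSC WT than in cancer cells in control medium, by 2.88, 3.73 and 3.97, and 1 had a difference of -0.05. The 4 probes of Ptpn14 had differences of 1.24, 0.92, 0.72 and 0.05 between these cell types. The brightest probe of Cnn3 had differences of 0.20 between PSC genotypes and 0.34 in HT PSC medium, and its dim probe -0.14 and -0.20.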
